A study of Homo sapiens with 6 samples.

Results

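Heat shock chaperone genes, 10 in all, were followed in RPMI8226, a line of human multiple myeloma cells, after 6 hr with GST-PTR1 or with GST, each at 100 nM. PTR1 is a link domain of HAPLN1, a matrix protein that binds hyaluronan, and it was made in bacteria fused to glutathione S-transferase. GST, the fusion partner alone, was the control. There were 3 biological replicates of each treatment, labelled wild type in genotype, and all came from 1 cell line. The genes are HSPA1A, HSPA1B, HSPA8, HSPH1, HSP90AA1, DNAJB1, HSPB1, HSPD1, HSPE1 and BAG3, which are the rows of the RNA-Seq count table whose Ensembl identifiers carry these symbols on a primary chromosome. All 10 were found among the 63677 genes listed, and all 10 were among the 16926 genes with enough counts to be tested. The libraries held between 15202503 and 44688737 counts, and each library is named below by its treatment and its total. The 8 plasma cell markers checked were over 3 counts in every library, and the 3 T cell markers were at or under 3 counts in all 6. Of 8 markers of monocytes, fibroblasts and erythroid cells, CD14 (6 to 15 counts), COL1A1 (4 to 13 counts) and HBA1 (32 to 114 counts) were over 3 counts in every library, and their part in the results was not tested.

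Chaperones bind unfolded stretches of other proteins and keep them from clumping while they fold. Hsp70 proteins do this in cycles of ATP binding and release, which J-domain proteins start and nucleotide exchange factors end, while Hsp90 acts later on partly folded clients such as kinases. When unfolded protein builds up, the transcription factor HSF1 forms trimers and binds heat shock elements, inverted repeats of the unit GAA, in front of these genes. Myeloma cells make large amounts of immunoglobulin and are known for leaning on their protein quality control. The 10 genes do not all act in the cytosol, since HSPD1 and HSPE1 encode chaperonins of the mitochondrial matrix, so the 10 are called heat shock chaperone genes here. Among them, BAG3 encodes a co-chaperone.

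In the GRCh37 coordinates of the count table, the inducible Hsp70 genes HSPA1A (ENSG00000204389) and HSPA1B (ENSG00000204388) lie on the plus strand at chr6:31783291-31785723 and chr6:31795512-31798031. HSPA8 (ENSG00000109971), the constitutive Hsc70, is on the minus strand at chr11:122928197-122933938. HSPH1 (ENSG00000120694), an Hsp110 and exchange factor, is on the minus strand at chr13:31710762-31736525. HSP90AA1 (ENSG00000080824), the stress-inducible Hsp90, is on the minus strand at chr14:102547075-102606036. DNAJB1 (ENSG00000132002), the Hsp40 that delivers clients to Hsp70, is on the minus strand at chr19:14625582-14640582. HSPB1 (ENSG00000106211), the small heat shock protein Hsp27, is on the plus strand at chr7:75931861-75933612. HSPD1 (ENSG00000144381, Hsp60) is on the minus strand at chr2:198351305-198381461. HSPE1 (ENSG00000115541, Hsp10) is on the plus strand at chr2:198364718-198368181, inside the annotated span of HSPD1. BAG3 (ENSG00000151929), which links Hsp70 to small heat shock proteins and selective autophagy, is on the plus strand at chr10:121410882-121437331.

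The heat shock elements in front of the genes are shown because they are the sequences through which HSF1 is known to act on them. RefSeq promoter windows of assembly GRCh38.p14, from 250 bases before to 50 bases after each start site, matched all 10 genes in 14 windows. A heat shock element of 2 units (GAANNTTC or TTCNNGAA, either of which reads the same on both strands) was in at least 1 window of 7 of the 10 genes. In the RefSeq table, 4417 of 27305 genes had one. The element was in 8 of the 14 windows, against 13.5% of the 35116 windows in the RefSeq table. In an element of 3 units, such a 2-unit element runs on over 2 free bases into another unit, so that a pair of them overlap. It was in windows of HSPA8, HSP90AA1 and HSPD1, against 166 of the 27305 genes and 0.49% of all windows. The windows of HSPH1, HSPE1 and BAG3 held neither spelling. The stretches below are written 5′ to 3′ on the strand of the gene, with the elements in capitals. Positions are counted back from the start site of the window that holds the element. HSP90AA1, DNAJB1 and HSPD1 have several start sites. Their elements shown are counted from a start site farther downstream, and the window of the most upstream start site of each held 0 elements. The first stretch, in HSPA1A, covers chr6:31815425-31815454 (plus strand) and has its element at position -106.
HSPA1A: gcgaaaaccctgGAATATTCccgacctggc
The matching stretch of HSPA1B, at chr6:31827621-31827650 (plus strand), has the same element at -105.
HSPA1B: gcgaaacccctgGAATATTCccgacctggc
The 250 bases before the start sites of HSPA1A and HSPA1B were identical at 93.6% of aligned positions. These were the only 2 of the 10 genes with TATAAA in a window (found in 3819 of the 27305 genes and 11.5% of all windows).
HSPA8 has 3-unit elements near its start, at -55 in chr11:123062167-123062196 (minus strand), and farther upstream, at -230 in chr11:123062342-123062371 (minus strand).
HSPA8, near: gccccTTCTGGAAGGTTCtaagatagggta
HSPA8, upstream: agcttGAAAGTTCCAGAAcgctgcggtgag
HSP90AA1 has one at -88 in chr14:102087109-102087138 (minus strand).
HSP90AA1: gggttcTTCCGGAAGGTTCgggaggcttct
In HSPD1 the units run on to form 2 overlapping 3-unit elements from -245, in chr2:197500061-197500090 (minus strand).
HSPD1: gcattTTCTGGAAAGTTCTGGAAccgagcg
DNAJB1 and HSPB1, like HSPA1A and HSPA1B, had only 2-unit elements by this spelling, of which those shown are at -77 of DNAJB1 in chr19:14518450-14518479 (minus strand) and at -182 of HSPB1 in chr7:76302483-76302512 (plus strand).
DNAJB1: gggcgGAAGGTTCtggagggggctggcggg
HSPB1: taacgagaGAAGGTTCcagatgagggctga
In the GENCODE annotation of GRCh38, the stretches of HSPA8, HSP90AA1 and HSPD1 lie in annotated exons and the others in none. A match describes the letters only. The kappaB motif, the site bound by NF-kB, was searched only as read on the strand of the gene, without its reverse complement. In that orientation it was in windows of 0 of the 10 genes, against 2724 of the 27305 genes and 8.4% of all windows. These values cannot show that the genes lack the motif.

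None of the 10 heat shock chaperone genes passed the test for a difference between GST-PTR1 and GST, while 20.6% of all genes tested did (quasi-likelihood test of edgeR, adjusted p by Benjamini-Hochberg under 0.05), 9.15% as higher, 11.4% as lower and 7.53% with at least a 2-fold change. The estimates of 8 genes were above 0 and those of HSPB1 and BAG3 were below 0 (9 above 0 with DESeq2's size factors, and 6 with library totals). The median log2 fold change of the 10 genes was 0.27, against 0.01 over all genes tested. Regardless of sign, the median size of change was 0.27 for the 10 genes and 0.27 over all genes tested. By mean CPM, BAG3 stood at percentile 68.9 of all genes tested, DNAJB1 at 93.6 and the others higher, so the genes compared differ in level. Without adjustment, 3 of the 10 genes (HSPA1A, HSPA8 and HSPD1) had p under 0.05, as did 35.2% of all genes tested. DESeq2 called 2 of the 10 genes, HSPA8 and HSPD1, and 3746 of all 16926 genes tested. By limma's voom, 0 of the 10 and 3521 of the 16926 were called. The 95% intervals of all 10 genes lay inside a 2-fold change in either direction, and the highest bound was 0.79, for HSPA8. The sizes depend on how libraries are scaled. When libraries were scaled by their totals alone, the median over all genes moved to -0.19 and that of the 10 genes to 0.07, with 6 above 0, and genes called higher made up 19.6% rather than 44.4% of all calls.

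**Figure D1:**
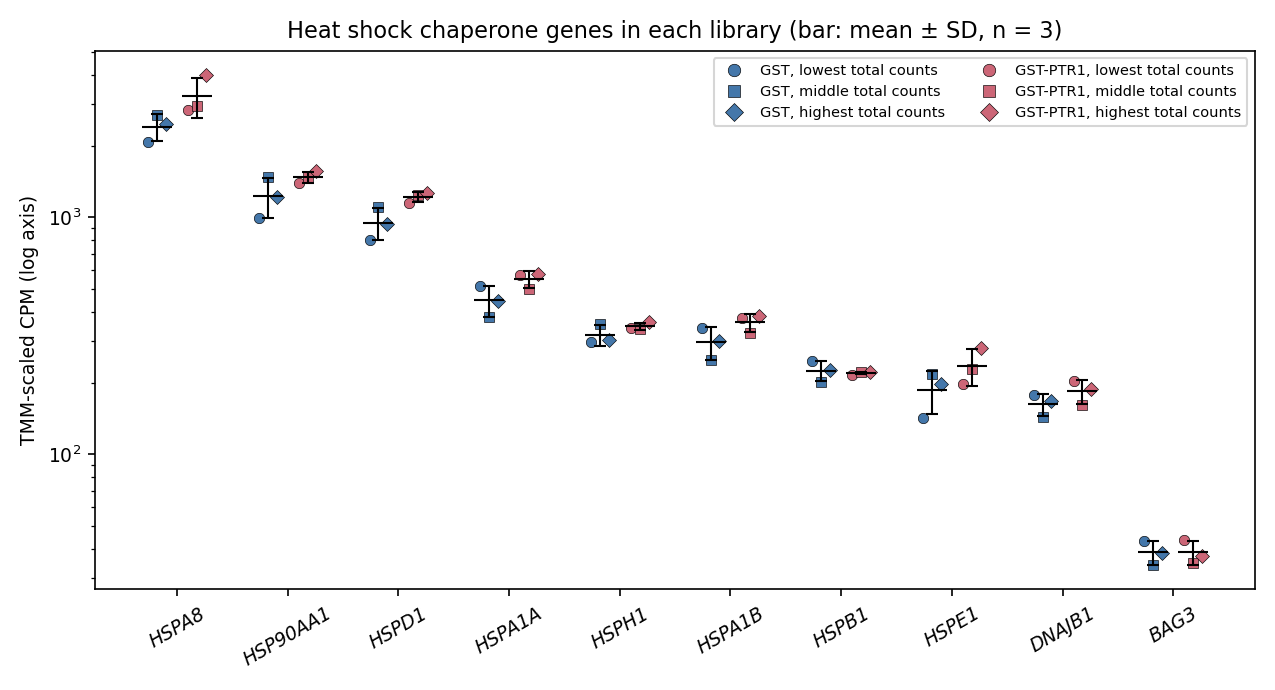
Each point is 1 library's level of a gene in TMM-scaled CPM (counts scaled to a common library size), on a log axis, with the mean ± SD of the 3 libraries of each treatment. The libraries of the treatments overlap for 8 of the 10 genes, and every GST-PTR1 library lies above every GST library for HSPA8 and HSPD1.

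The inducible Hsp70 genes were well expressed in GST-treated cells. HSPA1A was at 515, 381 and 444 CPM in the GST libraries of 15202503, 20077280 and 23453473 counts, and at 572, 497 and 579 CPM in the GST-PTR1 libraries of 22874133, 28837431 and 44688737 counts. The lowest GST-PTR1 library lay below the highest GST library, so the treatments overlapped. The log2 fold change was 0.30 (SE 0.13, 95% interval 0.01 to 0.59, adjusted p = 0.131 by edgeR). It came to 0.41, with adjusted p = 0.0442, when the shallowest GST library (15202503 counts) was left out, and to 0.20, with adjusted p = 0.310, when the middle one (20077280 counts) was left out. With library totals it was 0.10. HSPA1B followed the same order of libraries, with 343, 249 and 301 CPM under GST and 376, 325 and 383 CPM under GST-PTR1. Its log2 fold change was 0.28 (SE 0.13, 95% interval -0.01 to 0.57, adjusted p = 0.161 by edgeR), and the treatments overlapped. Leaving out the middle GST library took it to 0.17, and library totals to 0.08. HSPA1A held between 59.6% and 60.5% of the summed counts of the pair in all 6 libraries. These values are uncertain as levels of either gene, because reads that mapped to several places were left out of the counts and 72.6% of the 50-base stretches of the HSPA1A transcript also occur in another gene, HSPA1B foremost. HSPA1B is also the gene whose pattern over the 6 libraries was nearest to that of HSPA1A among the 16925 other genes tested, with a root mean square difference of 0.0183 in centred log2 CPM, and HSPA1A was the nearest to HSPA1B.

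HSPA8 had the highest level of the 10 genes, and it is the Hsp70 that unstressed cells rely on. It was at 2068, 2697 and 2463 CPM under GST and at 2829, 2950 and 3972 CPM under GST-PTR1, with libraries in increasing order of their totals. All 3 GST-PTR1 libraries were above all 3 GST libraries, with the GST-PTR1 library of 44688737 counts above the rest. An exact two-sided permutation test gave p = 0.1, the smallest that 3 libraries against 3 allow. The log2 fold change was 0.43 (SE 0.16, 95% interval 0.07 to 0.79, adjusted p = 0.0861 by edgeR). It was 0.44 with adjusted p = 0.0335 in DESeq2, and 0.46 with adjusted p = 0.00357 when edgeR kept every gene with at least 1 count. With the deepest GST-PTR1 library (44688737 counts) left out it was 0.27 with adjusted p = 0.237, and with library totals it was 0.23 with adjusted p = 0.251. HSPA8 made up between 36.7% and 44.9% of the counts of the 10 genes. Its ratio to HSPA1A in RPKM (CPM per kilobase of exon) was 2.01, 3.56 and 2.78 under GST and 2.48, 2.98 and 3.44 under GST-PTR1, and these ranges overlapped. The ratio carries the uncertainty of the HSPA1A counts given above.

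The genes that work with Hsp70 had lower levels per length of exon and estimates nearer to 0. DNAJB1 was at 178, 143 and 168 CPM under GST and at 205, 161 and 189 CPM under GST-PTR1, with a log2 fold change of 0.18 (SE 0.12, adjusted p = 0.312 by edgeR). HSPH1 was at 299, 356 and 303 CPM under GST and at 341, 338 and 362 CPM under GST-PTR1, with a log2 fold change of 0.12 (SE 0.11, adjusted p = 0.459 by edgeR). With the middle GST library (20077280 counts) left out, DNAJB1 was at 0.10 and HSPH1 at 0.21. With the shallowest (15202503 counts) left out, HSPH1 was at 0.07. Library totals turned both estimates to the other side of 0, at -0.02 for DNAJB1 and -0.08 for HSPH1. BAG3 had the lowest level, with 43.2, 34.3 and 38.6 CPM under GST and 43.6, 35.0 and 37.4 CPM under GST-PTR1. In all 3 genes the treatments overlapped. The means of BAG3 were 38.7 ± 4.4 CPM under GST and 38.7 ± 4.4 CPM under GST-PTR1 (SD, n = 3), and the 95% interval of its log2 fold change ran from -0.28 to 0.28 (adjusted p = 0.992 by edgeR).

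HSP90AA1 was at 996, 1473 and 1218 CPM under GST and at 1401, 1476 and 1560 CPM under GST-PTR1. The GST libraries spread over a wider range than the GST-PTR1 libraries, and the highest GST library lay between the lowest and the middle GST-PTR1 library. The log2 fold change was 0.27 (SE 0.15, 95% interval -0.06 to 0.59, adjusted p = 0.221 by edgeR). It was 0.13 with the shallowest GST library (15202503 counts) left out, 0.42 with the middle one (20077280 counts) left out and 0.07 with library totals. Its constitutive paralog HSP90AB1 was at 1932, 2538 and 2310 CPM under GST and at 2723, 2885 and 2923 CPM under GST-PTR1, with no overlap and a log2 fold change of 0.33 (SE 0.13, adjusted p = 0.105 by edgeR). HSP90AB1 passed the test in DESeq2 (adjusted p = 0.0452) and with every gene of at least 1 count kept (adjusted p = 0.0339), while library totals gave 0.14 (adjusted p = 0.455). HSPB1 was at 247, 203 and 228 CPM under GST and at 217, 222 and 222 CPM under GST-PTR1, which all lay within the GST range. Its log2 fold change was -0.04 (SE 0.11, 95% interval -0.27 to 0.20, adjusted p = 0.837 by edgeR).

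The mitochondrial chaperonin genes lie on opposite strands, with 104 bases between the RefSeq start site of HSPE1 and the most upstream one of HSPD1. In the annotation of the count table they overlap. They share 281 exon bases on opposite strands, which is 14.2% of those of HSPE1 and 6.62% of those of HSPD1. The heat shock elements of HSPD1 shown above are counted from a different start site of HSPD1. HSPD1, whose product forms the folding chamber, was at 802, 1100 and 941 CPM under GST and at 1147, 1238 and 1266 CPM under GST-PTR1. The treatments did not overlap, and the exact two-sided permutation p was 0.1, the smallest possible. The log2 fold change was 0.36 (SE 0.13, 95% interval 0.06 to 0.66, adjusted p = 0.0816 by edgeR, 0.0399 by DESeq2). HSPE1, whose product forms the lid, was at 143, 219 and 199 CPM under GST and at 199, 228 and 282 CPM under GST-PTR1. These overlapped, and the log2 fold change was 0.34 (SE 0.17, 95% interval -0.03 to 0.71, adjusted p = 0.177 by edgeR). Without the GST library of 20077280 counts, HSPD1 was at 0.48 with adjusted p = 0.0412, and with the shallowest GST library (15202503 counts) left out it was at 0.25 with adjusted p = 0.220. HSPE1 was at 0.18 (adjusted p = 0.444) with the shallowest GST library left out and at 0.21 (adjusted p = 0.455) with the deepest GST-PTR1 library (44688737 counts) left out. With every gene of at least 1 count kept, adjusted p was 0.0181 for HSPD1 and 0.025 for HSPE1. With library totals, HSPD1 was at 0.17 and HSPE1 at 0.14. HSPE1 shares 9.71% of its annotated exon bases with HSPE1-MOB4 on the same strand, and that gene had 0 counts in all 6 libraries. Reads that fell in several genes were left out, so the 0 cannot show that HSPE1-MOB4 was silent. Reads in the shared bases are missing from the counts of HSPE1 too. HSPA8 and HSPD1 were the only 2 of the 10 genes whose treatments did not overlap, against 40.4% of all genes tested (19.2% with GST-PTR1 higher and 21.2% with it lower).

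**Figure D2:**
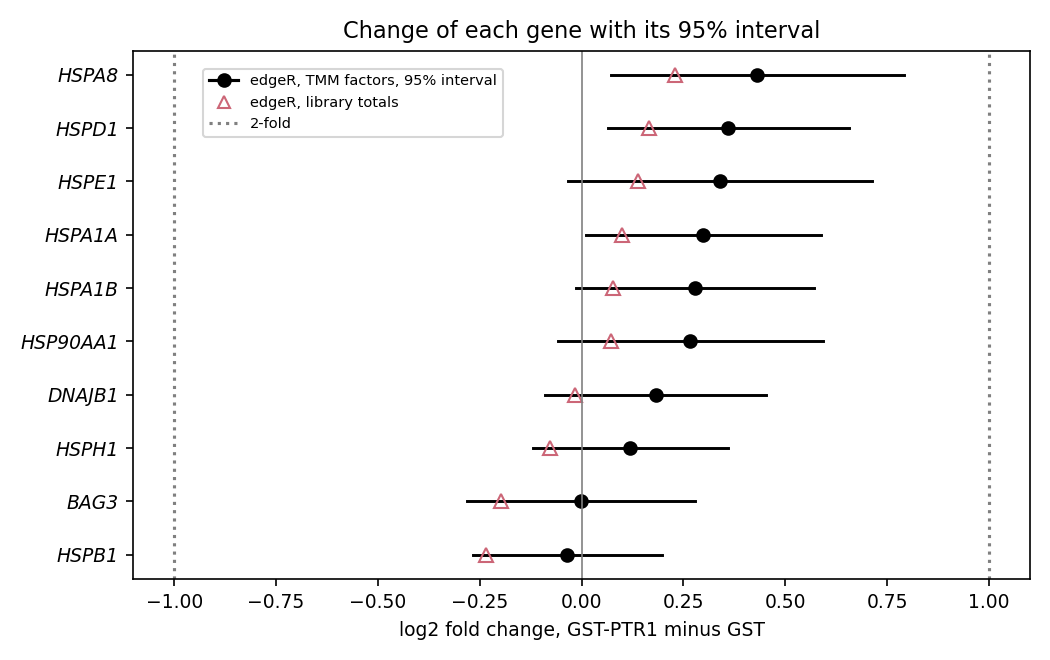
Each row is 1 of the 10 genes, and the filled point is its log2 fold change (GST-PTR1 minus GST) from edgeR with TMM factors, with its 95% interval. All intervals lie inside the dotted lines at 2-fold, and the open triangles, from library totals, lie to the left of the points, from 0.23 for HSPA8 down to -0.23 for HSPB1.

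Per length of exon, the genes kept a wide order of levels. In GST-treated cells, HSPA8 was at 497 ± 66 RPKM, above HSP90AA1 at 234 ± 45 RPKM, HSPD1 at 223 ± 35 RPKM and HSPA1A at 184 ± 28 RPKM (SD, n = 3). The ranges of HSP90AA1 and HSPD1 overlapped, as did those of HSPD1 and HSPA1A. HSPB1 at 138 ± 14 RPKM and HSPA1B at 118 ± 19 RPKM overlapped each other and HSPA1B overlapped HSPE1 at 94.4 ± 19.8 RPKM, which overlapped HSPH1 at 78.0 ± 7.7 RPKM. DNAJB1 at 44.4 ± 4.8 RPKM and BAG3 at 14.1 ± 1.6 RPKM stood below the other genes and apart from each other. With GST-PTR1, HSPA8 was at 670 ± 129.5 RPKM and BAG3 at 14.1 ± 1.6 RPKM, again first and last. HSPD1 at 287 ± 15 RPKM and HSP90AA1 at 282 ± 15 RPKM stood in the reverse order and overlapped, as did HSPA1B at 143 ± 13 RPKM and HSPB1 at 135 ± 1.8 RPKM. Levels are less certain where another gene or a pseudogene copies a transcript. The share of 50-base stretches found in another gene was highest for HSPA1B (73.5%) and HSPA1A (72.6%), so their places are the least certain. It was 24.8% for HSPD1, 17.8% for HSPE1, 17.5% for HSP90AA1, 15.4% for HSPA8, 11.4% for HSPB1 and 2.57% for DNAJB1, and 0% for HSPH1 and BAG3. Together the 10 genes took between 0.617% and 0.721% of the counts in GST libraries and between 0.708% and 0.781% in GST-PTR1 libraries.

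The spread among the GST libraries split the genes into a pair of groups. Within GST, HSPA1A, HSPA1B, DNAJB1, BAG3 and HSPB1 were highest in the library of 15202503 counts and lowest in the library of 20077280 counts. HSPA8, HSPH1, HSP90AA1, HSPD1 and HSPE1 were highest in the library of 20077280 counts and lowest in the library of 15202503 counts. For HSPA1A, these libraries lay 0.22 above and 0.22 below the GST mean on the log2 CPM scale, and for HSPE1 they lay 0.36 below and 0.25 above it. Within GST-PTR1, the library of 28837431 counts was the lowest of the 3 for HSPA1A, HSPA1B, DNAJB1, BAG3 and HSPH1. The library of 44688737 counts was the highest for HSPA8, HSPH1, HSP90AA1, HSPD1 and HSPE1, and also for HSPA1A and HSPA1B. The groups seen within GST were thus not separated within GST-PTR1. The share of counts from mitochondrial genes was 5.98%, 8.20% and 7.22% under GST and 6.05%, 7.83% and 7.84% under GST-PTR1, in increasing order of totals, and its part in these deviations was not tested. The coefficient of variation was between 9.79% (HSPB1) and 21% (HSPE1) among the GST libraries and between 1.31% (HSPB1) and 19.3% (HSPA8) among the GST-PTR1 libraries. A difference in the levels of these bulk samples cannot tell a change in RNA per cell from a change in which cells were present.

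**Figure D3:**
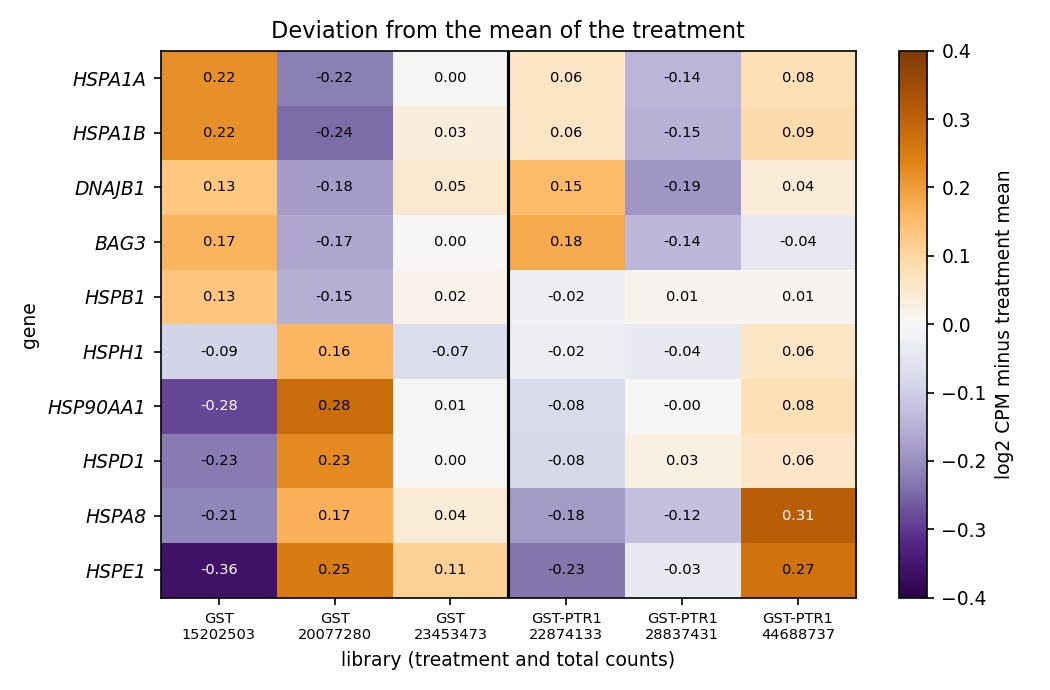
Colours and printed values give the log2 CPM of each gene in each library minus the mean of the 3 libraries of the same treatment. In the GST libraries, the 5 genes at the top deviate in the opposite direction to the 5 at the bottom in the libraries of 15202503 and 20077280 counts.

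The likeness of patterns over libraries, taken as the root mean square difference in centred log2 CPM over the 6 libraries, put 8 of the 10 genes nearest to a gene outside the set. HSP90AA1 was nearest to PPIG (0.0252), with HSPD1 at place 31 of 16925, and HSPD1 was nearest to NOL8 (0.00805), with HSP90AA1 at place 34. HSPA8 was nearest to the pseudogene EEF1A1P11 (0.0306), and the nearest of the 10 genes to it was HSPE1, at place 413. DNAJB1 had HSPA1B at place 52. HSPH1 was nearest to TMEM167A, HSPB1 to IFITM10, HSPE1 to COPS5 and BAG3 to ABHD17AP6. These likenesses are descriptions over libraries of 1 cell line.

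The rest of the chaperone system was described with 9 wider lists of 86 genes, of which 84 were matched by symbol and 73 were tested. Of these, 10 passed the test as higher and 1 as lower with GST-PTR1, which is 15.1% of those tested, against 20.6% of all genes. Their median log2 fold change was 0.22, and 61 of the 73 estimates were above 0 (42 with library totals). DESeq2 called 17 of them and edgeR called 7 without the GST library of 23453473 counts or without the GST-PTR1 library of 28837431 counts. With library totals, 5 genes of the lists were called higher and 5 lower, against 927 higher and 3795 lower of all 16926 genes tested. These all-gene counts also stand beside the counts that single lists below had with library totals.

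The heat shock factor genes did not pass the test. HSF1, the main factor of the heat shock response, was at 139, 129 and 147 CPM under GST and at 139, 138 and 126 CPM under GST-PTR1, with a log2 fold change of -0.04 (SE 0.10, adjusted p = 0.797 by edgeR). HSF2 was at 9.78, 10.6 and 10.3 CPM under GST and at 10.6, 9.85 and 11.03 CPM under GST-PTR1, with a log2 fold change of 0.04 (SE 0.13, adjusted p = 0.863 by edgeR). The treatments overlapped for both factors. None of the 4 tested genes of this list was called, against 20.6% of all genes. HSF4, a relative of HSF1 named after its values were seen, had a log2 fold change of -0.47 with the treatments overlapping (SE 0.20, adjusted p = 0.121 by edgeR), and it was the only 1 of the 4 with an unadjusted p under 0.05. With library totals all 4 estimates were below 0 and 1 gene was called lower. The mRNA level does not measure HSF1 activity, which is set mainly on the protein.

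HSPA6, an Hsp70 gene that is strictly stress-inducible, rose with GST-PTR1. Of 7 other Hsp70 and Hsp110 genes tested, HSPA6 alone passed, which is 14.3% called against 20.6% of all genes. It was at 3.18, 1.85 and 2.40 CPM under GST and at 5.88, 5.05 and 6.14 CPM under GST-PTR1, with no overlap. The log2 fold change was 1.21 (SE 0.21, adjusted p = 0.00237 by edgeR), from a level far below that of HSPA1A. In its transcript, 45.5% of 50-base stretches also occur in the related gene HSPA7, so its count is uncertain. HSPA1L, which lies head to head with HSPA1A and overlaps 3.29% of its exon bases on the opposite strand, was at 2.52, 1.89 and 1.76 CPM under GST and at 2.74, 1.94 and 2.87 CPM under GST-PTR1 (log2 fold change 0.31, SE 0.24, adjusted p = 0.374 by edgeR), and the treatments overlapped.

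Of the 12 other J-domain genes tested, 5 rose and 0 fell, which is 41.7% called against 20.6% of all genes. With library totals 2 were called higher and 1 lower, and DNAJB5 (adjusted p = 0.0908 by edgeR), DNAJB6 (0.245) and DNAJC2 (0.0554) were no longer called. DNAJA2 went from 102 ± 12 to 175 ± 16 CPM (log2 fold change 0.78, SE 0.12), and DNAJA1 went from 461 ± 83 to 745 ± 100.5 CPM (0.69, SE 0.15), both SD, n = 3. These are Hsp70 partners of the cytosol related to DNAJB1. DNAJB5 rose by 0.64 (SE 0.17) on the log2 scale from 3.35 CPM. DNAJB6 (0.37, SE 0.09) and the ribosome-associated DNAJC2 (0.57, SE 0.15) were named after their values were seen. Adjusted p by edgeR was between 0.000956 and 0.0208 for the 5. DNAJB1, at 0.18, was not called. The calls of DNAJB5 and DNAJB6 were lost on leaving out either the deepest GST library (23453473 counts) or the middle GST-PTR1 library (28837431 counts). That of DNAJC2 was lost on leaving out either the same GST library or the deepest GST-PTR1 library. A difference between DNAJB1 and these genes was not tested.

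Of the 13 Hsp90 and co-chaperone genes tested, only CHORDC1, an Hsp90 partner, was called, which is 7.69% against 20.6% of all genes. CHORDC1 went from 66.5 ± 10.99 to 93.9 ± 10.9 CPM (SD, n = 3), with a log2 fold change of 0.50 (SE 0.14, adjusted p = 0.0249 by edgeR). With library totals it was at 0.30 with adjusted p = 0.0946, and the list had 0 genes called higher and 2 lower. Its call was also lost on leaving out any 1 of the GST libraries of 15202503 and 23453473 counts and the GST-PTR1 libraries of 28837431 and 44688737 counts. All 14 genes of TRiC, the cytosolic chaperonin for actin and tubulin, and of its partner prefoldin had estimates above 0 (13 of 14 with library totals). Of these, PFDN2 alone passed the test (0.62, SE 0.14, adjusted p = 0.0102 by edgeR), which is 7.14% called against 20.6% of all genes. Without adjustment, 8 of the 14 had p under 0.05, against 35.2% of all genes, and the median was 0.32 (0.12 with library totals). Among 10 other mitochondrial chaperones and proteases, GRPEL1 alone, the exchange factor of the mitochondrial Hsp70, was called (0.47, SE 0.12, adjusted p = 0.0193 by edgeR). That is 10% called against 20.6% of all genes, and 9 of the 10 had estimates above 0 (5 with library totals). The call of GRPEL1 was lost with library totals (0.27, adjusted p = 0.104) and when either of the 2 deeper GST-PTR1 libraries (28837431 and 44688737 counts) was left out. None of the 8 other Hsp70 cofactors tested was called, against 20.6% of all genes. Estimates were above 0 for 7 of the 8 (1 with library totals), and 1 had an unadjusted p under 0.05, against 35.2% of all genes. None of the 8 matched other small heat shock genes had enough counts to be tested.

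Among 14 other heat-inducible genes tested, some of which also belong to the lists above, 4 rose and 1 fell, which is 35.7% called against 20.6% of all genes. With library totals, 3 were called higher and 1 lower. IER5, an immediate early gene whose product acts on HSF1, had the largest rise, from 48.1, 45.6 and 46.5 CPM under GST to 146, 137 and 138 CPM under GST-PTR1. The libraries within each treatment lay close together, and the log2 fold change was 1.59 (SE 0.09, adjusted p = 7.18e-07 by edgeR). The other genes of this list called higher were HSPA6, DNAJA1 and CHORDC1, all of which were already counted in the lists above. SERPINH1, a collagen chaperone of the endoplasmic reticulum, fell from 41.0 ± 0.0288 to 26.8 ± 2.5 CPM (SD, n = 3; log2 fold change -0.61, SE 0.11, adjusted p = 0.00278 by edgeR), and was named after its values were seen. HSPA6 and IER5 were the 2 genes of the wider lists called with at least a 2-fold rise.

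**Figure D4:**
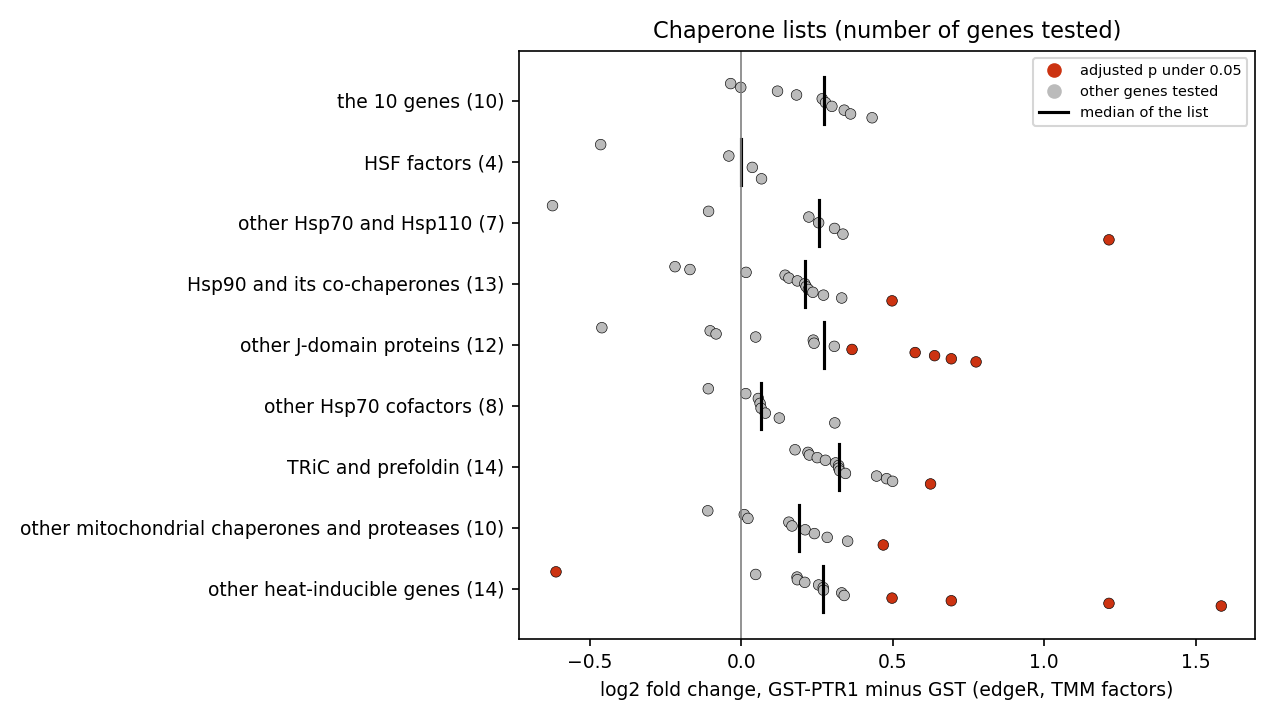
Points give the log2 fold change (GST-PTR1 minus GST) of each tested gene by list, red where adjusted p is under 0.05, and vertical bars give the median of each list. None of the 10 heat shock chaperone genes is red, and IER5 at 1.59 and HSPA6 at 1.21 lie farthest to the right.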

How the data were processed

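RNA-Seq was run on 3 GST and 3 GST-PTR1 samples from 1 ug of total RNA with a stranded mRNA kit. The authors deposited whole-number counts per gene, made with featureCounts 1.5.0-p1 on the Ensembl 75 exons of GRCh37, with reads counted on the reverse strand and those that mapped to several places or several genes left out. The aligner, its version and the read length are not given in the sources used here. Per the file headers, the length column, the only other measure used here, holds summed exon bases. Columns were assigned to treatments by name. The numbers in column names differ from those the labels give replicates, so no library was tied to one. The smallest chi-square per gene between libraries of a treatment was 8.31, and all 6 counted as separate samples.

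Tests on the counts used edgeR 4.0.16 in R 4.3.3 (TMM factors, filterByExpr, glmQLFit, glmQLFTest) over 16926 genes, with Benjamini-Hochberg adjustment and a threshold of 0.05. CPM and RPKM use the library totals times the TMM factors. Log2 CPM used a prior count of 2. On simulated counts for this comparison, over at least 16663 genes, a mean of 98.9% of changed genes were recovered, with 3.42% false calls. Recovery by size of change was not tested. These values therefore give no recovery for estimates as small as those of the 10 genes. Alternatives were DESeq2 1.42.0, limma 3.58.1, other scaling factors and filters, and each library left out in turn. Each single-gene permutation test was exact, on log2(CPM + 1). Every one of the 10 genes is named; of each wider list, up to 3 called genes with the largest change, plus HSF1, HSF2, HSPA6, HSP90AB1 and overlapping genes. The 10 genes and the lists, written from general knowledge, were chosen with earlier results of these data known. Shared stretches were searched in GENCODE transcripts, and promoter windows are from RefSeq. Intervals cover the spread between these samples.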

Additional observations from a re-analysis of the deposited data

How the results depend on the processing

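Of the 10 heat shock chaperone genes, 0 were called with DESeq2's size factors, library totals, voom or at least 10 counts in every library. DESeq2's test called 2 and keeping genes with at least 1 count in any library called 3 (HSPA8, HSPD1 and HSPE1). Leaving out 1 library in turn gave between 0 and 1 of these genes, between 7 and 14 genes of the wider lists, and between 2287 and 3349 genes in all, against 11 and 3486 with all libraries. The lowest totals were 2288 with the deepest GST library (23453473 counts) left out and 2287 with the middle GST-PTR1 library (28837431 counts) left out. In the wider lists, DESeq2 called 17 and the looser filter 26. Over all genes tested, DESeq2's test gave 3746 calls of 16926, library totals 4722 of 16926 and the looser filter 4914 of 31617. The cause was not tested. Estimates near 0 crossed it. With library totals, HSPH1 was at -0.0769, DNAJB1 at -0.0151 and HSF2 at -0.16. BAG3 was at 0.0075 with DESeq2's size factors and in DESeq2's test and at 0.0287 with the looser filter. On leaving out 1 library, HSPB1 ranged from -0.105 to 0.0313, BAG3 from -0.0939 to 0.0808 and HSF1 from -0.0870 to 0.0185. The planned replicate block over all 6 libraries was not run, because the columns carry no replicate number of the labels. As an alternative chosen after seeing the data, the 4 libraries with a number common to both treatments in their column names were fitted. The deviations of libraries with the same number correlated at -0.03. With so few libraries this value is the same for both pairs by construction, so it cannot show whether they share a replicate. The fits of these 4 libraries gave 0 of the 10 genes, 11 genes of the wider lists and 3318 genes in all with the replicate block, against 0, 13 and 3638 without the replicate block. HSPB1 was at 0.0438 without the replicate block and 0.0460 with the replicate block, and HSF2 at -0.000715 with it. The smallest count of the 10 genes in any library was 720.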
